A study of Mus musculus with 6 samples.

Results

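The Runx transcription factors, their partner subunit Cbfb and a set of blood factors that act downstream of Runx1 were followed in differentiating mouse embryonic stem cells with and without HOXB4. The 10 genes were taken by name: Runx1, Runx2, Runx3 and Cbfb, and Gfi1, Gfi1b, Spi1, Myb, Ikzf1 and Nfe2. Each was read from the array feature whose annotation names that gene alone, and 9 of the 10 had such a feature among the 30702 genes of the table. The level of Runx2 was not analysed here. Each measured gene had 1 such feature, so no choice between features was needed. The Spi1 feature carries Spi1 and Sfpi1, which RefSeq lists as an older symbol of the same gene.

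The cells came from a mouse embryonic stem cell line called iRunx, grown as embryoid bodies, cell aggregates that form all germ layers, to day 4, and the fraction positive for Flk1 and negative for the PDGF receptor alpha, which includes precursors of blood and endothelium, was sorted by flow cytometry. Both groups shared the line, the day and the gate. In the HOXB4 group the cells carried HOXB4, a Hox transcription factor known for expanding blood stem cells in culture, on a retrovirus with tdTomato as its mark; the control group did not. Each group had 3 arrays, described as independent experiments, made from 100 ng of RNA each. The construct behind the name iRunx, its induction, and whether controls received an empty virus are not stated in the labels, so a Runx1 value cannot be assigned to the endogenous gene alone.

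RUNX proteins bind DNA through the Runt domain, and CBFB, which does not bind DNA itself, strengthens that binding. RUNX1 is needed for haemogenic endothelium to give rise to blood cells in the embryo. GFI1 and GFI1B are repressors that it switches on and that silence endothelial genes during that step. Spi1 encodes PU.1, a driver of myeloid fate that RUNX1 also activates, while Myb, Ikzf1 and Nfe2 encode regulators of definitive progenitors, lymphoid and erythroid chromatin, and the erythroid and megakaryocyte programmes.

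Values are log2 summaries made by the RMA method, comparable between arrays for 1 gene but not between genes. Background was judged from the 23 control features that the array names as background. Their medians were 3.06 to 3.15, their 95th percentiles 5.05 to 5.68, and the median gene stood at 5.10 to 5.22. With 3 arrays a group, their number limits the precision. Kdr, which encodes Flk1, was at 13.7 to 14.3 on the 6 arrays. The features for Hoxb4 and Pdgfra are each shared with a microRNA gene, so they cannot by themselves settle the transgene or the negative gate. The Hoxb4 feature was at 4.63, 4.96 and 4.40 across controls 1 to 3, against 4.93, 4.24 and 4.74 across HOXB4 1 to 3. The groups overlapped, and a higher level with HOXB4 was not seen there. The Pdgfra feature was at 6.67, 6.47 and 6.89 across controls 1 to 3, against 5.95, 7.15 and 6.04 across HOXB4 1 to 3. Control 2 and HOXB4 2 stood apart from their groups. On the first principal component of all genes, which held 53.2% of the variance, HOXB4 1 and 3 were at 43.8 and 34.7 and control 2 at 7.46, while HOXB4 2 was at -23.8 beside controls 3 and 1 at -25.0 and -37.1. Over all genes, the root mean square log2 distance of HOXB4 2 was 0.269 on average to controls 1 and 3 and 0.418 to HOXB4 1 and 3, so it lay nearer to the other group. Control 2 lay about as far from HOXB4 1 and 3 (0.335) as from controls 1 and 3 (0.350). The labels were kept as given, and whether these arrays carry the right ones was not tested; every HOXB4 minus control value rests on those labels. Values without both arrays, a choice made after seeing the data, are given for the members called that way and for Runx1. They are also given for some of the list medians and named list genes, where leaving both out enlarged some differences and shrank others.

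No member passed in the comparison of HOXB4 with control cells. Limma's moderated test called 0 of 30702 genes (0%) at a Benjamini-Hochberg adjusted p below 0.05, and the smallest adjusted p of any gene was 0.605. At an unadjusted p below 0.05 it counted 2513 genes (8.19%), 685 higher (2.23%) and 1828 lower (5.95%) with HOXB4, and 0 of the 9 members. Ordinary gene-wise variances, used in place of the moderated ones, gave 0 calls and 1974 genes below the unadjusted limit. For 995 genes (3.24%) and 0 members, the lowest HOXB4 value exceeded the highest control value. The reverse, each HOXB4 value under each control value, held for 3145 genes (10.2%) and 1 member, Runx3, a share near that of all genes. The median log2 difference was -0.04 over the 9 members and -0.04 over all genes. Of all genes, 12288 were above 0 and 18414 below, and the counts given for the lists are to be read against that split. The variation of Myb, Gfi1b and Ikzf1 was wide, and for each of them control 2 and HOXB4 2 lay apart from the other arrays of their group.

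**Figure D1:**
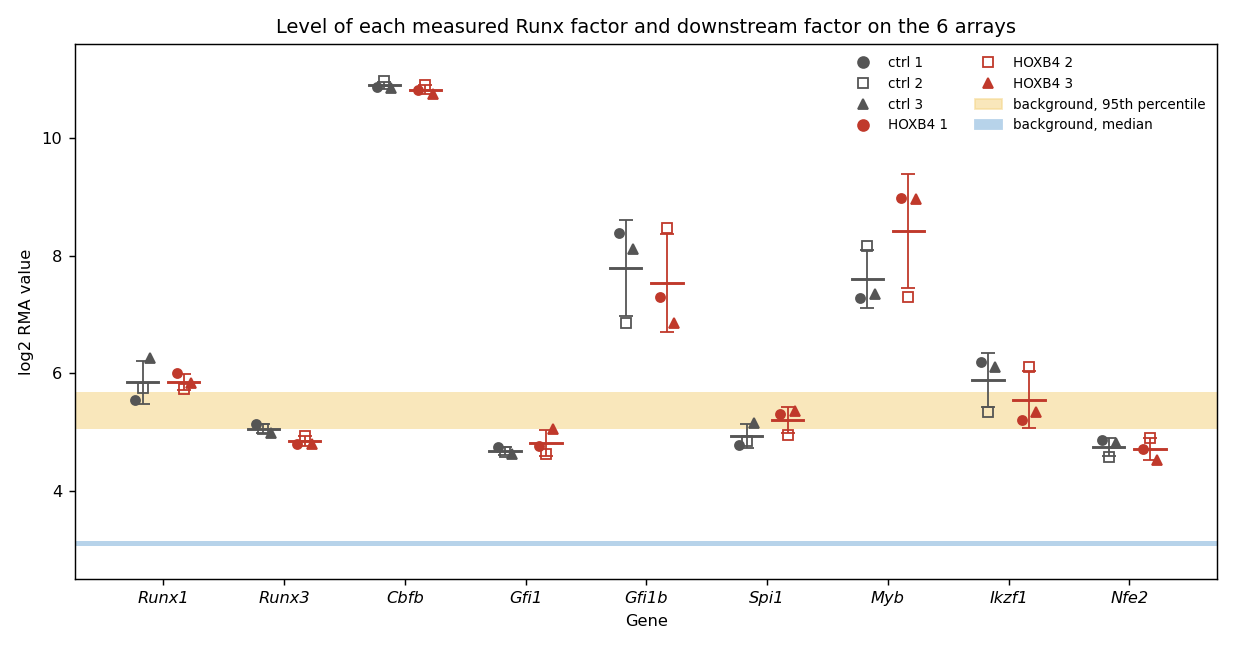
Log2 RMA value of the 9 measured genes on each array, with controls in grey and HOXB4 in red; bars are mean and SD (n = 3), and the bands show the range over arrays of the median and the 95th percentile of the background features. Cbfb, Gfi1b and Myb lie above both bands on all 6 arrays, and Runx3, Gfi1 and Nfe2 do not pass the 95th percentile on any.

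The mean of Runx1 was nearly equal in the groups. Its log2 value was 5.54, 5.75 and 6.25 across controls 1 to 3, against 5.999, 5.72 and 5.83 across HOXB4 1 to 3. The HOXB4 arrays all lay inside the range of the controls, in which control 1 was lowest and control 3 highest. The means were 5.85 ± 0.37 and 5.85 ± 0.14 (SD, n = 3 each), a log2 difference of 0.004 (SE 0.19, 95% interval -0.45 to 0.46). With limma's adjusted p at 0.996 no difference was detected, and the interval still allows a change of up to 0.46 either way. The sign of so small a difference is not fixed: it was -0.15 without control 1, -0.04 without control 2, -0.07 without HOXB4 1 and 0.21 without control 3. Runx1 was above the 95th percentile of background on 5 of the 6 arrays, the exception being control 1.

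Runx1 is transcribed from 2 promoters, a distal and a proximal one, and the single array feature does not separate their transcripts. In RefSeq on GRCm38.p6 their start sites lie 128745 bases apart. The 250 bases before each start are shown because the blood programme uses both, at chr16:92826075-92826324 for the distal and chr16:92697330-92697579 for the proximal promoter, both on the minus strand. Sequences run 5′ to 3′ towards the start site, and capitals in these and later promoters mark RUNX, GATA and ETS motif matches.
Runx1 distal: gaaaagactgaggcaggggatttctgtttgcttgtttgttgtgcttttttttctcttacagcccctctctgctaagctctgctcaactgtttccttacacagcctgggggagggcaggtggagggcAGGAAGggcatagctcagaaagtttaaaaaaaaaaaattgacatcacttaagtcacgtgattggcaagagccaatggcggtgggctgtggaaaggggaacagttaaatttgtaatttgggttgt
Runx1 proximal: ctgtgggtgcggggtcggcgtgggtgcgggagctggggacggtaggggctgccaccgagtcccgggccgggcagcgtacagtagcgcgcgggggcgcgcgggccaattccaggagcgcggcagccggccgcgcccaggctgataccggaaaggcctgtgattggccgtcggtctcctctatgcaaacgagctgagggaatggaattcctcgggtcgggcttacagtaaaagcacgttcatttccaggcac
The only capitals here are an ETS match in the distal window, 124 bases before the start. The distal window held 45.6% G and C and the proximal one 67.6%.

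Motifs were searched on both strands as exact letters: TGTGGT or TGCGGT for RUNX, AGATAA or TGATAA for GATA factors, CGGAAG or AGGAAG for ETS, and TAATTA for homeodomain proteins. No match overlapped another. Promoters in the RefSeq table covered 8 of the 10 members with 12 start sites. RUNX letters were found in 2 of the 12 windows, against 18.6% of 32817 windows of the same length from all genes. GATA letters were found in 1 (16.6% of all windows), ETS letters in 5 (39.2%) and the homeodomain letters in 0 (4.845%). These are matches of letters and not measured binding sites.

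Runx3, which acts in lymphoid and neural cells, was the member with the smallest unadjusted p. Its log2 value was 5.14, 5.05 and 4.98 across controls 1 to 3, against 4.79, 4.94 and 4.79 across HOXB4 1 to 3. Each HOXB4 value was below each control value, though by as little as the step from 4.98 in control 3 to 4.94 in HOXB4 2. The log2 difference was -0.22 (SE 0.09, 95% interval -0.44 to 0.003), with limma's adjusted p at 0.605. The exact two-sided permutation test gave p = 0.1, the smallest that 3 against 3 arrays allow. All 6 values were below the 95th percentile of background on their array, so the difference is not read as one of expression. Left-out arrays moved it only between -0.27 and -0.18.

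Of the 12 windows, the distal Runx3 promoter alone held a pair of RUNX matches. They start 134 and 126 bases before the start site, at chr4:135120395-135120644 on the plus strand.
Runx3 distal: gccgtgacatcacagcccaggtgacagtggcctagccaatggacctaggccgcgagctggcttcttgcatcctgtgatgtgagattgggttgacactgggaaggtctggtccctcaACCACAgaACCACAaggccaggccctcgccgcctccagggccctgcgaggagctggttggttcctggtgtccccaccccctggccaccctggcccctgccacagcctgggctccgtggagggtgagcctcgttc
The other match lay in the Runx2 promoter, 80 bases before its start.

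Cbfb, the shared partner subunit, was the steadiest member. Its log2 value was 10.87, 10.97 and 10.85 across controls 1 to 3, against 10.82, 10.90 and 10.75 across HOXB4 1 to 3. The groups overlapped, since HOXB4 2 lay above controls 1 and 3. The range over all 6 arrays was 0.22, against 0.71 for Runx1 and 1.71 for Myb. Its log2 difference was -0.07 (SE 0.09, 95% interval -0.28 to 0.14; limma's adjusted p = 0.810), and with cyclic loess scaling it turned to 0.02.

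Gfi1 and Gfi1b are paralogous zinc finger repressors, and only Gfi1b gave a signal above background. Gfi1 was at 4.74, 4.66 and 4.62 across controls 1 to 3, against 4.76, 4.62 and 5.05 across HOXB4 1 to 3, below the 95th percentile of background on every array. Its highest value was HOXB4 3, without which the log2 difference of 0.14 (SE 0.13) was 0.02. Gfi1b was at 8.38, 6.85 and 8.12 across controls 1 to 3, against 7.30, 8.46 and 6.84 across HOXB4 1 to 3. It was high in controls 1 and 3 and in HOXB4 2, and low in control 2 and HOXB4 3, so each group held both high and low arrays. The means were 7.78 ± 0.82 and 7.54 ± 0.83 (SD, n = 3 each), a log2 difference of -0.25 (SE 0.52, 95% interval -1.49 to 1.00; limma's adjusted p = 0.901). The sign turned without control 1 (0.05) and without HOXB4 3 (0.10), and the difference was -0.71 without control 2 and -0.71 without HOXB4 2.

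The Gfi1b promoter is shown for its GATA match, 120 bases before the start, in the window chr2:28621983-28622232 on the minus strand. GATA factors act with RUNX1 and GFI1B in erythroid and megakaryocyte cells.
Gfi1b: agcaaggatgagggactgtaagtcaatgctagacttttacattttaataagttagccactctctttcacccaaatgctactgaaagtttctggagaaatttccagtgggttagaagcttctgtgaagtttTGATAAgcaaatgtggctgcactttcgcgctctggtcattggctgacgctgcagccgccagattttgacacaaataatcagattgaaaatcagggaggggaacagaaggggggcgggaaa
The window held 44.4% G and C and no match to the RUNX letters.

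Spi1 was dim in all samples. It was at 4.78, 4.85 and 5.15 across controls 1 to 3, against 5.30, 4.95 and 5.36 across HOXB4 1 to 3. HOXB4 1 and 3 were above every control and HOXB4 2 was not. The log2 difference was 0.27 (SE 0.15, 95% interval -0.09 to 0.64), with limma's adjusted p at 0.644. Control 3 alone passed the 95th percentile of background, which differs between arrays. It was 5.07 on control 3, against 5.68 and 5.61 on HOXB4 1 and 3. Spi1 was thus higher on HOXB4 1 and 3 than on control 3, yet not above that limit in any HOXB4 array. Of the 10 macrophage markers, genes of a cell type that PU.1 drives, 7 were not above that limit on any array and 1 was above it on all. Csf1r, the receptor for the macrophage growth factor and a target of PU.1 and RUNX1, was among the 7, at 3.68 to 3.83.

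Myb, needed for definitive but not for primitive blood formation, had the largest difference and the widest range of the members. It was at 7.27, 8.16 and 7.35 across controls 1 to 3, against 8.98, 7.29 and 8.96 across HOXB4 1 to 3. HOXB4 1 and 3 were above every control, control 2 came next, and HOXB4 2 lay with controls 1 and 3 at the bottom. The means were 7.60 ± 0.49 and 8.41 ± 0.97 (SD, n = 3 each), a log2 difference of 0.82, or 1.76-fold (SE 0.49, 95% interval -0.35 to 1.98). It did not pass (limma's adjusted p = 0.660; exact two-sided permutation p = 0.3). Leaving out 1 array kept it above 0, from 0.53 without HOXB4 1 and 0.54 without HOXB4 3 to 1.38 without HOXB4 2, where limma's adjusted p was 0.142.

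Ikzf1, which encodes Ikaros, was high on the arrays where Myb was low. It was at 6.19, 5.35 and 6.10 across controls 1 to 3, against 5.21, 6.10 and 5.33 across HOXB4 1 to 3. Control 1, control 3 and HOXB4 2 were within 0.1 of each other on the log2 scale, and the other 3 arrays lay lower. The log2 difference was -0.33 (SE 0.31, 95% interval -1.06 to 0.40; limma's adjusted p = 0.765). It was -0.60 without control 2, -0.61 without HOXB4 2 and -0.16 without HOXB4 1. Only 3 of its 6 values, those of control 1, control 3 and HOXB4 2, were above the 95th percentile of background, so on the other arrays the level is not distinguished from it.

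Nfe2, the erythroid and megakaryocyte bZIP factor, was at 4.87, 4.57 and 4.80 across controls 1 to 3, against 4.72, 4.90 and 4.52 across HOXB4 1 to 3. Its arrays stood in the same order as those of Gfi1b, over a range of only 0.38 and below the 95th percentile of background throughout. The log2 difference was -0.04 (SE 0.13, 95% interval -0.35 to 0.28), and it was 0.02 without control 1 and 0.06 without HOXB4 3.

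**Figure D2:**
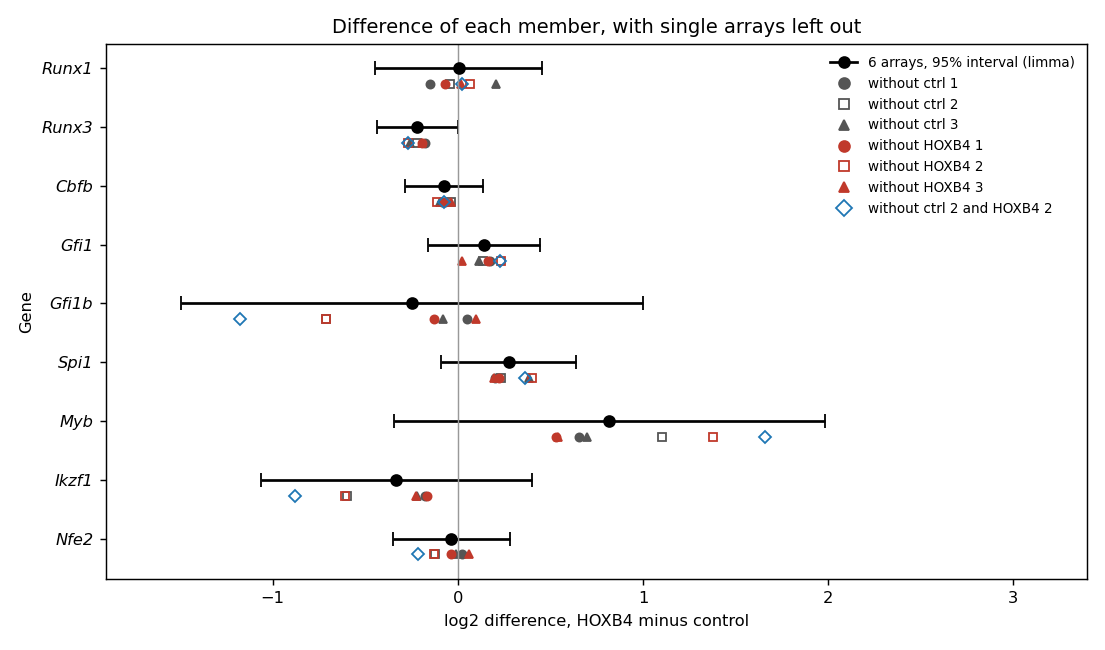
Log2 difference of each member, HOXB4 minus control, from all 6 arrays with its 95% interval (black), and below it the value with single arrays, or control 2 and HOXB4 2 together, left out. Every interval includes 0, and the points of Gfi1b, Myb and Ikzf1 spread most.

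Promoters of Myb and Ikzf1 are shown because these genes varied in opposite directions over the arrays. The windows are chr10:21160985-21161234 on the minus strand for Myb and chr11:11689927-11690176 on the plus strand for the downstream one of 2 Ikzf1 starts.
Myb: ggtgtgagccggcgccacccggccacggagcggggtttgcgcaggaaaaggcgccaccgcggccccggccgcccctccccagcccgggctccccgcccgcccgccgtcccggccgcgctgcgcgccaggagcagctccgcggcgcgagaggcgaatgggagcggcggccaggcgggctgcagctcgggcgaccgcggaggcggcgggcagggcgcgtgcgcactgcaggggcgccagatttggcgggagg
Ikzf1 downstream: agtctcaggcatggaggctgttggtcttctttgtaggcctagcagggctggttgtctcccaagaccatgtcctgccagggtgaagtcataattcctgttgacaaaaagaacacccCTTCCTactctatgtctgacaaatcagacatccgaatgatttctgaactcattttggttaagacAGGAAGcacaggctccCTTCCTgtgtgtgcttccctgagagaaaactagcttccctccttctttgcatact
The Myb window held 81.2% G and C and none of the letters searched. The Ikzf1 window shown held 47.6% G and C and 3 ETS matches, 135, 71 and 55 bases before the start. The window of the upstream Ikzf1 start, not shown, held 82.0% G and C and, like that of Myb, none of the letters searched.

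Myb, Gfi1b and Ikzf1 divided the arrays across the group labels. Relative to each gene's mean over the 6 arrays, Myb stood at 0.98 and 0.95 in HOXB4 1 and 3 and at 0.16 in control 2, but at -0.73, -0.65 and -0.71 in controls 1 and 3 and HOXB4 2. On the same scale Gfi1b stood at 0.72, 0.46 and 0.80 in controls 1 and 3 and HOXB4 2, and at -0.81, -0.36 and -0.81 in control 2 and HOXB4 1 and 3. Ikzf1 had the same signs as Gfi1b on every array. Runx1 did not follow either order, with its highest value in control 3 and its lowest in control 1.

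**Figure D3:**
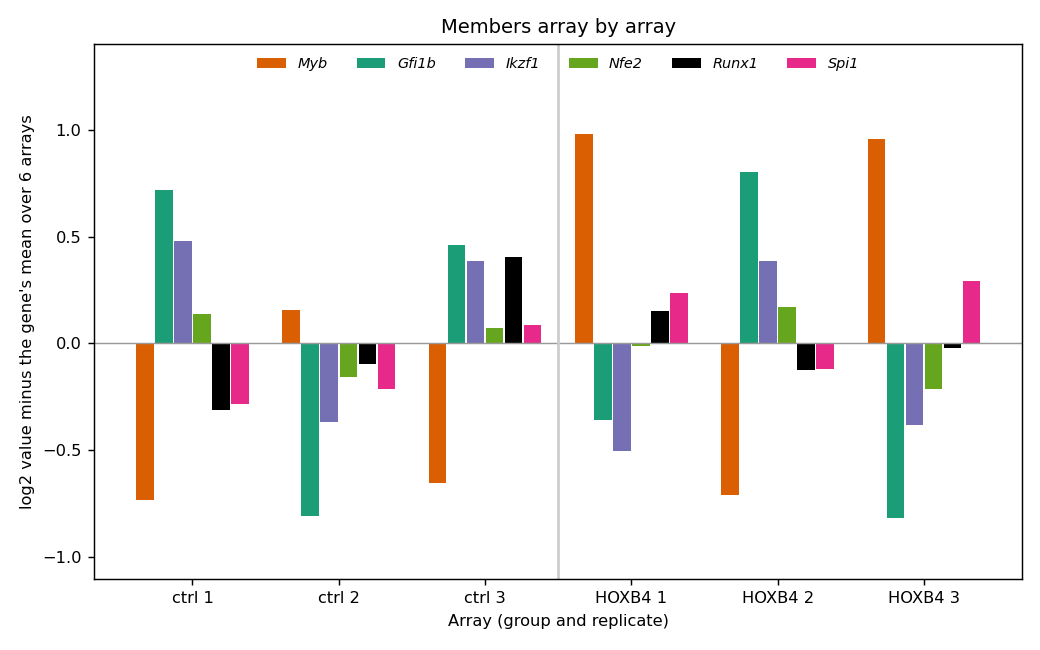
Log2 value of 6 members on each array minus that gene's mean over the 6 arrays (bars from 0). Myb is above 0 where Gfi1b and Ikzf1 are below, and control 2 and HOXB4 2 each differ in sign from the other 2 arrays of their group for these 3 genes.

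Without control 2 and HOXB4 2 the same fit called 817 of 30702 genes (2.66%), 502 higher and 315 lower, among them 3 of the 9 members. Myb was then higher with HOXB4 by 1.66 (95% interval 1.35 to 1.97; limma's adjusted p = 0.0054). Gfi1b was lower, at -1.18 (95% interval -1.66 to -0.69; limma's adjusted p = 0.047), and so was Ikzf1, at -0.88 (95% interval -1.20 to -0.55; limma's adjusted p = 0.036). The Ikzf1 values of HOXB4 1 and 3 were not above the 95th percentile of background. Runx1 was at 0.02 (95% interval -0.59 to 0.63). Those 2 arrays were left out after their values had been seen to stand apart in these same genes. The calls are therefore selected, rest on 2 arrays a group, and are given as a description.

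Markers of the cell types that the gate can hold varied over the arrays as these members did. The mean log2 value of 11 endothelial markers was 8.62, 9.96 and 8.56 across controls 1 to 3, against 10.9, 8.33 and 9.60 across HOXB4 1 to 3. Like Myb, it was lowest in HOXB4 2 and controls 1 and 3, and 10 of the 11 markers were above the 95th percentile of background on all arrays. Their median log2 difference was 0.48, which became -0.12 without HOXB4 1 and 1.18 without HOXB4 2, and 0.29, 1.03 and 0.23 with controls 1, 2 and 3 left out; it was 1.79 without both arrays numbered 2. Pecam1, an adhesion molecule of endothelium, was at 8.10, 10.6 and 7.96 across controls 1 to 3, against 11.8, 7.75 and 10.7 across HOXB4 1 to 3. The mean log2 value of 8 primitive erythroid markers ran the other way, like Gfi1b, at 7.22, 6.58 and 7.44 across controls 1 to 3, against 6.54, 7.44 and 6.38 across HOXB4 1 to 3; 4 of the 8 were above that limit on all arrays and 3 on none. Hbb-bh1, an embryonic beta-like globin, was at 12.6, 10.7 and 13.5 across controls 1 to 3, against 10.02, 13.6 and 9.84 across HOXB4 1 to 3. Pecam1 differed by 1.17 and Hbb-bh1 by -1.15, or by 3.20 and -3.15 without both arrays numbered 2. Gata1, the erythroid master factor, was at 5.50, 5.04 and 5.64 across controls 1 to 3, against 4.92, 5.47 and 4.89 across HOXB4 1 to 3. Gata1 was above the 95th percentile of background only on control 3 and HOXB4 2, where that limit was lowest (5.07 and 5.05). Klf1, of the same list, was under it on every array, at 4.92, 4.93 and 5.03 across controls 1 to 3, against 4.82, 4.75 and 4.99 across HOXB4 1 to 3. In bulk RNA, fewer cells of a type and less RNA per cell cannot be told apart, and the part of cell makeup in the values of Myb, Gfi1b and Ikzf1 was not tested.

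Surface markers of emerging blood were mixed. Of 9 measured haemogenic and progenitor markers, 7 were above 0 and 2 below, with a median log2 difference of 0.14, and 0 passed the unadjusted threshold. The median was 0.38 without HOXB4 2 and 0.24 without control 2, or without both, and 5 were above and 4 below 0 without HOXB4 1 or without control 3. Itga2b, which encodes CD41, differed by 0.50 (SE 0.34; 0.17 without control 1 and 0.80 without both arrays numbered 2), from 6.27, 7.16 and 7.38 across controls 1 to 3 to 7.93, 7.05 and 7.32 across HOXB4 1 to 3. Adgrg1, of the same list, differed by 0.45, or by 0.17 without both arrays numbered 2. Ptprc, which encodes the pan-leukocyte marker CD45 and was looked up after its values were seen, lay between 3.80 and 3.98, under the 95th percentile of background on every array. Of the 6 measured megakaryocyte markers, 1 was above the 95th percentile of background on all arrays and 4 on none. Differences above 0 were found for 4, and the 2 below were Gp9 (-0.25) and Ppbp (-0.09). The median of the 6 was 0.10. Leaving out single arrays took it to 0.007 (HOXB4 1), 0.05 (control 3) and 0.20 (HOXB4 2), and leaving out both arrays numbered 2 took it to 0.24. Pf4 is a platelet chemokine gene and also a RUNX1 target. It was at 5.05, 8.45 and 4.61 across controls 1 to 3, against 9.21, 4.62 and 8.52 across HOXB4 1 to 3. These values were high on the 3 arrays where Myb was high and low on the other 3. On those, control 1, control 3 and HOXB4 2, Pf4 was under the 95th percentile of background. Pf4 differed by 1.41, or by 4.03 without both arrays numbered 2.

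Most genes that act on Runx1 had differences above 0, and none passed. Of 14 measured upstream inputs, 11 were above 0 and 3 below, with a median of 0.41 against -0.04 for all genes; 0 were higher and 1 lower at an unadjusted p below 0.05. Leaving out HOXB4 1 took the median to 0.05 and leaving out HOXB4 2 took it to 0.82; the values for controls 1, 2 and 3 left out were 0.23, 0.61 and 0.26, and without both arrays numbered 2 it was 1.03. The 1 lower gene was Etv2, the ETS factor that starts the blood and endothelial programme, at -1.53 (SE 0.60). Smad5, a mediator of BMP signals, differed by 0.26 (SE 0.12). Bmp4, which encodes a BMP ligand, differed by -1.17 (SE 0.71) and the ETS factor Fli1 by 1.15 (SE 0.72). HOXB4 2 lay among or beside the controls for all 4 of these genes, for example at 15.2 for Bmp4, where controls were 14.7, 14.1 and 15.3 and HOXB4 1 and 3 were 12.6 and 12.7. Without both arrays numbered 2, the differences were -2.45 for Etv2, -2.32 for Bmp4, 2.42 for Fli1 and 0.37 for Smad5.

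Cofactors of RUNX proteins were measured for 22 genes, 12 above and 10 below 0, with a median of 0.02 and 0 past the unadjusted threshold; with cyclic loess 18 were above and 4 below 0. Tle3, a Groucho corepressor, differed by -0.88 (SE 0.45) and Cdk6, a kinase that binds RUNX1, by -0.93 (SE 0.48). In HOXB4 1 and 3 Tle3 was at 8.68 and 8.71, while the other 4 arrays held 9.90 to 10.4. Without both arrays numbered 2, Tle3 differed by -1.54 and Cdk6 by -1.78. Hdac3 and Prmt6, chromatin enzymes, differed by -0.16 (SE 0.09) and -0.18 (SE 0.10), without overlap between groups. They were the 2 of 22 genes with every HOXB4 value below every control value, where all genes gave 10.2%.

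Other known RUNX1 targets, 15 measured, had 4 above and 11 below 0 and a median of -0.09. All genes also had more below 0 than above, 18414 against 12288. Only 1 passed the unadjusted threshold, where 5.95% of all genes were lower, Csf2, a myeloid growth factor gene, at -0.23 (SE 0.09). Without both arrays numbered 2, Csf2 differed by -0.17. Csf2 and the granule enzyme gene Mpo (-0.25, SE 0.13) had no value over 4.90, and 9 of the 15 targets were not above the 95th percentile of background on any array. The targets above it included Anpep, a surface peptidase gene, which differed by -0.38 (SE 0.25), or -0.16 without HOXB4 3 and -0.18 without control 1. The median of the 15 was -0.17 without both arrays numbered 2.

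Partners of the downstream factors gave 1 of 8 and 1 of 13 genes past the unadjusted threshold in 2 of 3 lists and 0 in the other, against 8.19% of all genes, so these counts are near the background. The corepressor complex of GFI1 and GFI1B had 12 genes measured, 5 above and 7 below 0, with a median of -0.02 and 0 past that threshold. In it Rcor2, a scaffold for the histone demethylase KDM1A, differed by -0.66 (SE 0.29) and Gse1 by 0.36 (SE 0.19), or by -1.09 and 0.61 without both arrays numbered 2. Of 8 small MAF and CNC family genes, which pair with or compete with NFE2, Bach1 differed by 0.36 (SE 0.15) at an unadjusted p of 0.048 and Mafg differed by 0.26 (SE 0.14). Without both arrays numbered 2, Bach1 differed by 0.44 and Mafg by 0.18. Bach1, a repressor that competes with NFE2 for its sites, was at 9.49, 9.74 and 9.89 across controls 1 to 3, against 10.3, 9.94 and 9.95 across HOXB4 1 to 3, with no overlap, as for 3.24% of all genes. These 8 genes had 3 above and 5 below 0, with a median of -0.05. The 13 relatives and partners of PU.1, MYB and Ikaros had 5 above and 8 below 0, also with a median of -0.05, and Mybl2 had the smallest p.

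Mybl2, the cell cycle paralogue of Myb, differed in the direction opposite to Myb. It was at 9.75, 9.54 and 9.51 across controls 1 to 3, against 8.92, 9.24 and 8.93 across HOXB4 1 to 3, and here HOXB4 2 lay below every control. The log2 difference was -0.57 (SE 0.13, unadjusted p = 0.0030; limma's adjusted p = 0.605). Ikzf2 and Ikzf5, paralogues of Ikzf1, differed by 0.56 (SE 0.31) and 0.50 (SE 0.29), and Ikzf4 by -0.20 (SE 0.12); without both arrays numbered 2 these were 1.07, 0.87 and -0.37.

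The remaining markers of cells that could be carried through the gate were read in the same way. The cardiac and smooth muscle list (9 genes) had a median of -0.37, and the list of paraxial mesoderm and the PDGFRA lineage (8 genes) one of -0.44. In them 4 and 3 genes were lower at an unadjusted p below 0.05, where all genes gave 5.95%. The 4 were Tbx20 (-1.89), Hand2 (-1.21), Hand1 (-3.22) and Rgs5 (-2.96), and the 3 were Twist1 (-0.73), Foxf1 (-2.16) and Pdgfrb (-1.21). The rest of the cardiac and smooth muscle list did not pass. Nkx2-5, Myl7 and Acta2 were at -0.12, -0.36 and -0.37, and Tnnt2 and Tagln were above 0, at 0.26 and 0.13. Tbx6, Msgn1, Meox1, Tcf15 and Foxc2, the rest of the second list, did not pass, at -0.08, -0.56, -0.13, -0.31 and 0.09. The cardiac median was -0.67 without control 2, -0.65 without HOXB4 2 and -0.95 without both, and -0.25 without HOXB4 1. The median of the second list was -0.22 without HOXB4 1, -0.24 without HOXB4 3 and -0.66 without both arrays numbered 2. The list for undifferentiated stem cells had 8 of 9 genes above 0 and a median of 0.53 (0.38 without control 2, 0.79 without HOXB4 1, 0.49 without both arrays numbered 2), with 2 genes higher at that level against 2.23% of all genes, Zfp42 at 0.69 (SE 0.23) and Utf1 at 0.73 (SE 0.29). Without HOXB4 3 they differed by 0.43 and 0.39. No gene of these lists passed after adjustment. The endoderm and macrophage lists had medians of -0.09 and -0.004. These ran from -0.13 to -0.05 and from -0.09 to 0.03 over single arrays left out. Of 8 endoderm genes, 3 were above 0 and 5 below, and 4 were not above the 95th percentile of background on any array. Only 1 was lower at an unadjusted p below 0.05, Cxcr4 at -2.38 (SE 0.82). It differed by -1.63 without HOXB4 1 and -3.45 without both arrays numbered 2. Epcam went the other way, at 0.61 (SE 0.42), or 0.05 without both arrays numbered 2. Of 10 macrophage genes 0 were below that unadjusted limit. The part of these cells in the values of the members was not tested.

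**Figure D4:**
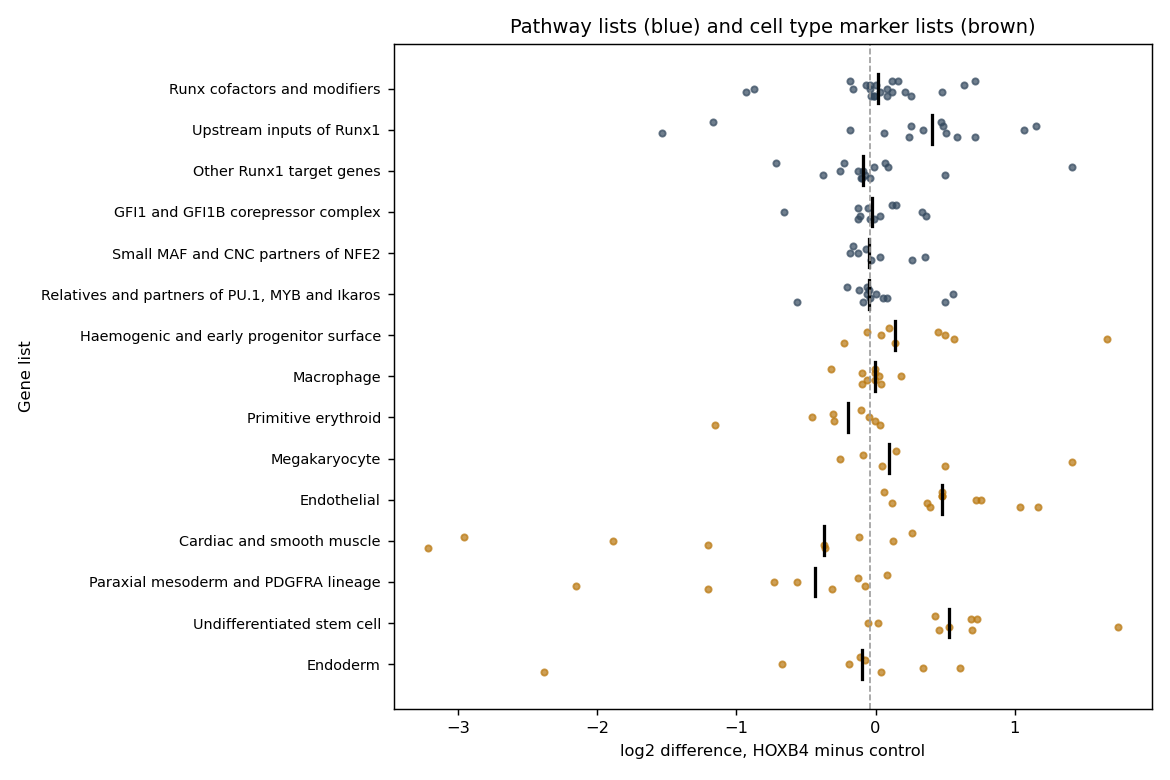
Log2 difference, HOXB4 minus control, of each measured gene in 6 pathway lists (blue) and 9 cell type marker lists (brown); the black bar is the list's median and the dashed line the median of all genes, -0.04. The upstream inputs and the endothelial markers have medians of 0.41 and 0.48 (0.05 and -0.12 without HOXB4 1), and the other pathway lists lie within 0.1 of 0.

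Genes with the pattern most like a member were sought by Pearson's r over the 6 arrays, among 2629 genes at or above the median gene in mean level with an SD of at least 0.3. With 6 arrays that share the axis described above, many genes reach a high r, so these are descriptions only. Closest to Runx1 were Ctsz, Rrad and Zfand2a (r of 0.93, 0.91 and 0.91), each highest in control 3. Closest to Cbfb were Msx1, Kitl and Cdx4 (0.97, 0.94 and 0.93). Closest to Gfi1b were Rasef, Sfmbt2 and Spon1 (0.99, 0.98 and 0.97). Closest to Myb were Xiap, Sox4 and Lpin1, and closest to Ikzf1 were Parp10, Rgs4 and Zfp280c, all with r of at least 0.99. Sox4, a transcription factor of progenitor cells, was at 9.54, 10.4 and 9.56 across controls 1 to 3, against 11.1, 9.48 and 11.1 across HOXB4 1 to 3.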

How the data were processed

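Per the submitters' processing notes, the authors made the deposited values with Affymetrix Expression Console and RMA, as log2 expression summaries normalised between arrays; their versions and settings: not given in the sources used here. RNA was labelled with the WT PLUS kit, per the labels' protocols. RMA equalises arrays, so a shift shared by most genes would be partly removed.

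Symbols of the platform annotation were updated through RefSeq (GRCm38.p6): of 65956 non-control features, 31258 named 1 gene, 1492 several and 33206 none listed. The brightest single-gene feature by mean stood for each of 30702 genes. HOXB4 minus control was fitted over all genes in R 4.3.3 by limma 3.58.1 with eBayes moderation, two-sided, at a threshold of 0.05 on the Benjamini-Hochberg adjusted p; SE and 95% intervals are moderated, and members also had an exact permutation test. The fit was tested on simulated data. Above background means above the 95th percentile of the 23 background features on that array. Tables and plots used matplotlib 3.10.9, numpy 2.4.6 and pandas 2.3.3 in Python 3.11.15.

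Members and lists were chosen with earlier results of these data known. Named were all members, in each list at most 4 genes by unadjusted p, and the 3 genes per member above background most like it. Of 170 genes in the lists, 156 were measured. Alternatives were a replicate block, a trended robust prior, array weights, a dim filter, median centring, cyclic loess, all features tested, feature means, no moderation, each array left out, and, added after seeing the data, control 2 and HOXB4 2 left out together.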

Additional observations from a re-analysis of the deposited data

How the results depend on the processing

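With any single array left out, the count of genes past the threshold ran from 0 to 46, the latter without HOXB4 2 (3 higher, 43 lower, no member), and without both control 2 and HOXB4 2, a choice made after seeing the data, it was 817. That setting also called Myb (1.66), Gfi1b (-1.18) and Ikzf1 (-0.88); no other setting called a member. In the other 14 settings, among them the fit without moderation, 0 genes were called. At an unadjusted p below 0.05 they counted 1266 to 3230 genes, the latter with array weights. With all 65956 features tested, 5978 features were below it. Of 144 member values under the alternatives, 132 kept their direction and stayed uncalled. The sign of Runx1 turned with array weights (-0.0018) and that of Cbfb with cyclic loess (0.024). Over left-out arrays Runx1 ran from -0.15 (without control 1) to 0.21, and was -0.04 without control 2 and -0.07 without HOXB4 1. Gfi1b ran from -0.71 to 0.10 (0.05 without control 1) and Nfe2 from -0.13 to 0.060 (0.02 without control 1). With the median of the background features as the limit, 9 members and not 3 were above background on all 6 arrays. Same-numbered arrays did not deviate together (correlations of -0.40, -0.59 and -0.35 for numbers 1, 2 and 3). With the replicate number as a block 0 genes were called (1294 at an unadjusted p below 0.05) and Myb differed by 0.82 (SE 0.56). Signal near background limits Runx3, Gfi1, Spi1 and Nfe2, and also Ikzf1, which was above background on only 3 of the 6 arrays.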
